A study of Mus musculus with 8 samples.

Results

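The genes described here are 43 mouse genes of Toll-like receptor and NF-κB signalling, and the data are the m6A peaks assigned to them in liver. They were chosen by gene symbol in the peak lists, and 42 of the 43 had a peak in at least 1 genotype; only Relb had none. They held 69 of the 15635 peaks listed for Wtap flox/flox liver, 92 of the 19185 peaks listed for Wtap-HKO liver and 11 of the 3870 rows of the list of differential peaks.

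N6-methyladenosine (m6A) was measured by immunoprecipitation of methylated poly(A)+ RNA fragments and sequencing (m6ARIP-seq), in 8 libraries. Livers came from mice aged 8 weeks on normal chow, of strain C57BL/6 per the labels and of C57BL/6J background per the methods of the study. The control animals were Wtap flox/flox without Cre. The Wtap-HKO animals were Wtap flox/flox with Alb-Cre, in which the albumin promoter drives Cre in hepatocytes, so that the other cells of the liver still had Wtap. Both genotypes carried the floxed alleles, and the controls lacked Cre, so that an effect of Cre itself and an effect of the deletion cannot be told apart. Each genotype had 2 immunoprecipitated (IP) and 2 input libraries, each from RNA pooled from several mice. The comparison asks how loss of WTAP, a subunit of the enzyme complex that writes m6A, in hepatocytes went with m6A along these transcripts.

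Toll-like receptors recognise microbial lipids, proteins and nucleic acids and pass the signal through the adaptors MyD88 and TRIF to the IRAK kinases, TRAF6 and the TAK1 complex. TAK1 activates the IκB kinase complex, which marks the IκB proteins for destruction and lets NF-κB dimers enter the nucleus, where they switch on inflammatory genes together with their own inhibitors. In the liver, Kupffer cells, endothelial cells and hepatocytes all use this pathway, and many of the receptors are best known from macrophages.

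Each genotype had 1 list for its replicates together and each peak 1 fold enrichment (IP over input, read depth unknown), and how the replicates were combined is not given in the sources used here. No replicate spread, standard deviation or test could be had from these values, and every difference given below is a description of the lists. A gene missing from a list had no peak that passed the authors' caller, which does not show that its RNA lacked m6A. Fold enrichment is a ratio within a transcript and is not a measure of the gene's expression, and how many cells of a type there were and how much RNA each held cannot be told apart in whole liver. Wtap itself had 3 peaks in each list, which do not measure its deletion.

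Across the members, peaks were seen in both genotypes for 32 genes. A peak was listed only in Wtap-HKO for 8 of the 42 genes (19.0%), where the share over all 11558 genes with a peak was 22.0%. These 8 were Tlr9, Myd88, Casp1, Irak4, Chuk, Ikbkb, Nfkb2 and Nfkbib. A peak was listed only in Wtap flox/flox for Tlr5 and Ikbkg, or 4.76% of the 42, against 7.99% of all genes. Of the 69 control peaks of the members, 6 (8.70%) overlapped no Wtap-HKO peak by a single exonic base, below the 19.9% over all control peaks. Of the 92 Wtap-HKO peaks, 32 (34.8%) overlapped no control peak, close to the 35.3% over all. Of these 4 shares, that of control peaks without overlap lay furthest from the share over all peaks or genes.

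The exonic length under the members' peaks was 25910 nt in the control list and 39543 nt in Wtap-HKO, a ratio of 1.53, where all genes together gave 1.19. The mean fold enrichment of those peaks was 11.5 and 13.9, beside 8.23 and 10.5 over all peaks. Their median fold enrichment, however, was 8.38 and 7.93, where that over all peaks was 5.51 and 5.93, so the direction of the members' values depended on the strongest peaks. The greater length lay mostly with the receptors, whose ratio was 2.78. The other members together had a ratio of 1.11, with 19439 nt and 21567 nt.

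**Figure D1:**
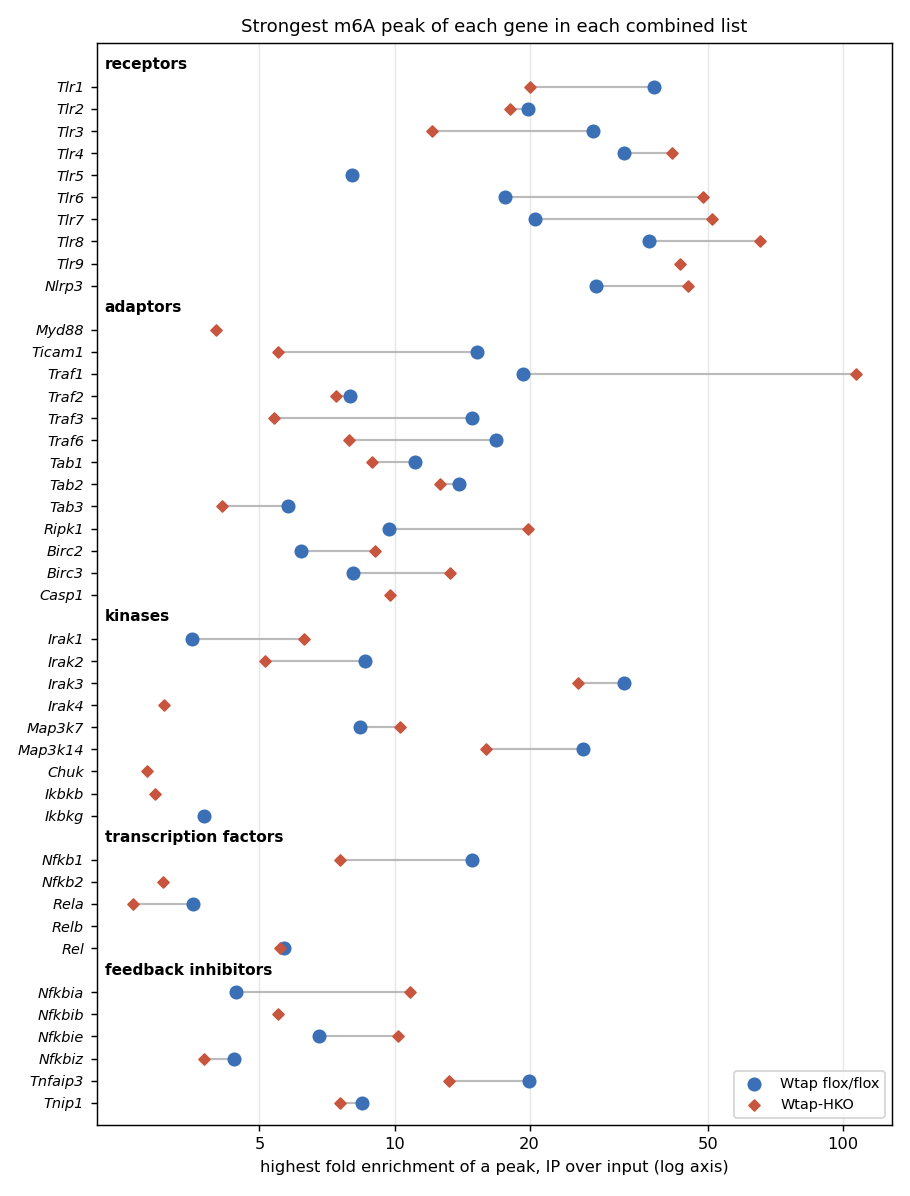
Highest fold enrichment (IP over input, log axis) of any m6A peak of each member gene, grouped by role; circles are Wtap flox/flox, diamonds Wtap-HKO, and each symbol is the single value of a combined list, so there are no error bars. A missing symbol means no listed peak. Of the 32 genes with peaks in both lists, 13 had the higher value in Wtap-HKO and 19 the lower.

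The receptors stood apart from the other members in strength and in length. Their peaks had a median fold enrichment of 17.6 in the control list and 20 in Wtap-HKO, where the medians over all peaks were 5.51 and 5.93. The 10 receptor genes had 19 control peaks and 35 Wtap-HKO peaks. Of the latter, 18 (51.4%) overlapped no control peak, where the share over all Wtap-HKO peaks was 35.3%; it was 64.7% for macrophage and leukocyte markers and 50% for endothelial markers. Covered length was greater in Wtap-HKO for 7 of the 8 receptors with peaks in both lists and the same for Tlr3. Among the peaks that could be paired 1 to 1, however, the receptors showed no common direction, with 5 of 10 ratios above 0 and a median log2 ratio of -0.08. Pairing left out all Tlr2 and Tlr8 peaks, and by strongest peak 5 of the 8 receptors were higher in Wtap-HKO and 3 lower. The paired receptor peaks therefore differed less in enrichment than the receptors did in how much of the transcript was called.

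**Figure D2:**
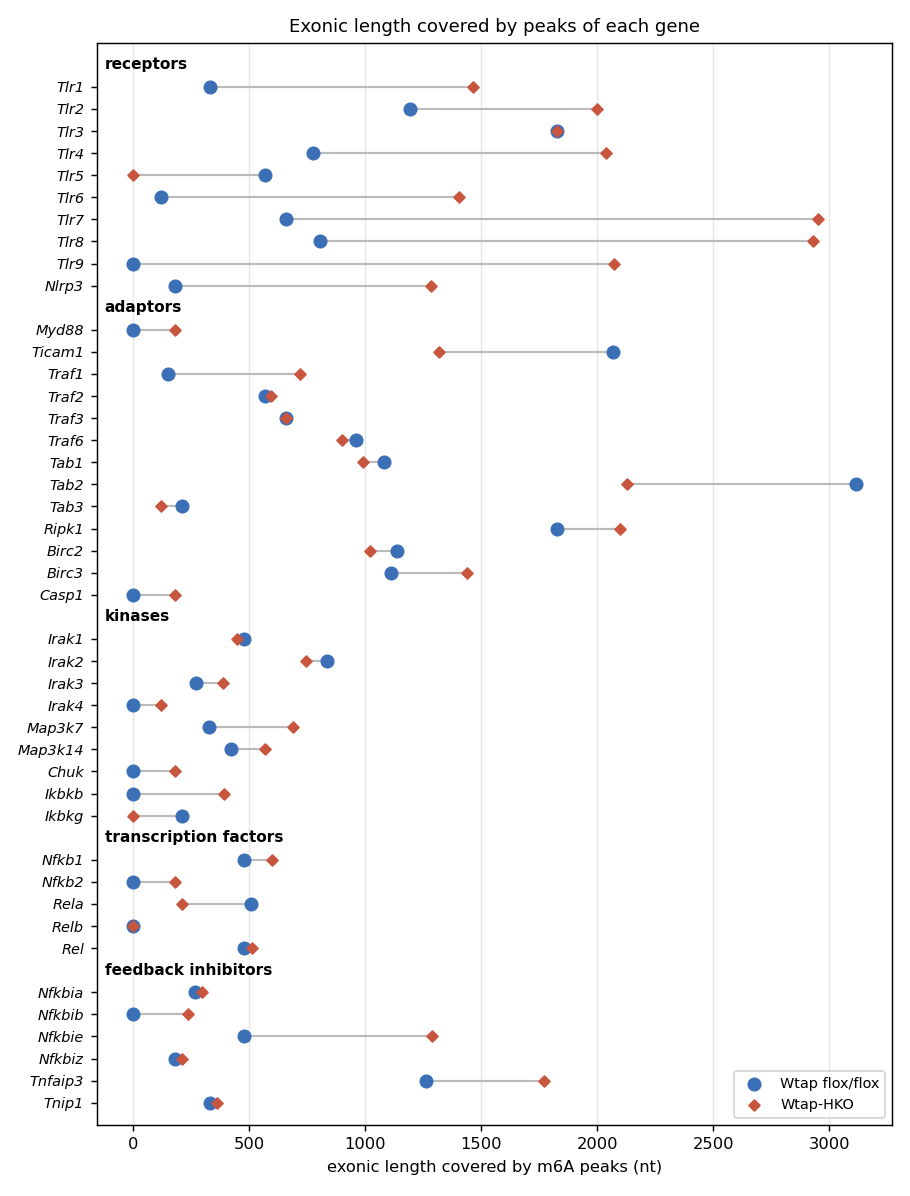
Exonic length in nucleotides covered by m6A peaks in each member gene, grouped by role; circles are Wtap flox/flox, diamonds Wtap-HKO, each 1 combined list, and a symbol at 0 means no listed peak. Tlr7 and Tlr8 had the greatest Wtap-HKO lengths, 2952 and 2929 nt, and Ticam1 and Tab2 had clearly shorter lengths in Wtap-HKO.

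Tlr7 and Tlr8, the endosomal receptors for single-stranded RNA, lie next to each other on chromosome X. Tlr7 (ENSMUSG00000044583; GRCm38, X, 167303380 to 167330574) had 4 peaks over 660 nt in the control list and 4 peaks over 2952 nt in Wtap-HKO. Its highest fold enrichment was 20.6 in the control list and 51.0 in the Wtap-HKO list. The peak at 51.0, of 894 nt, spanned control peaks at 5.27 and 19.7 and had no 1-to-1 pair. One paired Tlr7 peak had fold enrichments of 11.2 over 150 nt and 27.6 over 1222 nt (log2 ratio 1.30). Another had 20.6 over 180 nt and 18.3 over 657 nt (-0.17). The paired ratios thus differed between these places, but each compares stretches of unlike length. Tlr8 (ENSMUSG00000040522; X, 167241123 to 167264329) had 2 peaks in each list, over 808 nt in the control and 2929 nt in Wtap-HKO. A single Wtap-HKO peak of 2062 nt with fold enrichment 65.2 spanned both control peaks, which had 36.9 and 11.2. The lowest log10 FDR of a Tlr8 peak was -23.2 in the control list and -184 in Wtap-HKO. These FDR values depend on read depth and on how abundant the transcript was. The listed fold enrichments are not free of either, since both bear on which peaks pass the caller.

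Tlr9, the endosomal receptor for unmethylated CpG DNA (ENSMUSG00000045322; chromosome 9, 106222598 to 106226876), had no control peak and 5 Wtap-HKO peaks over 2073 nt. Their fold enrichments ran from 9.94 to 43.4. Tlr3, the receptor for double-stranded RNA, was the exception among the nucleic acid sensors. It was covered over 1828 nt in both lists, and its highest fold enrichment was 27.7 in the control list and 12.1 in Wtap-HKO. Both of its paired peaks had the lower value in Wtap-HKO, 11.2 against 6.75 and 7.90 against 2.84.

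Among the receptors of the cell surface, Tlr4, which recognises lipopolysaccharide (ENSMUSG00000039005; chromosome 4, 66827551 to 66846581), had 2 control peaks over 778 nt and 5 Wtap-HKO peaks over 2037 nt. Its paired peaks had fold enrichments of 32.5 and 28.0 (log2 ratio -0.22) and of 27.2 and 41.6 (0.61). The 3 added peaks had 13.9, 23.9 and 6.63. Thus the Tlr4 regions called in both genotypes were also the strongest ones in Wtap-HKO. Tlr2, which binds bacterial lipopeptides together with TLR1 or TLR6, went from 1196 nt in the control list to 2002 nt in Wtap-HKO at similar highest fold enrichments, 19.8 and 18.1. Tlr1 had 331 nt and 1467 nt, with its highest fold enrichment lower in Wtap-HKO (37.8 and 20). Tlr6 had 120 nt and 1404 nt, with 1 paired peak at 17.6 and 48.8 (log2 ratio 1.47). That peak had a log10 FDR of -3.62 in the control list and -27.0 in Wtap-HKO. Tlr1 and Tlr6 are close paralogs and neighbours on chromosome 5, so reads from shared stretches could be assigned to either gene, and their separate values are uncertain. Tlr5, the flagellin receptor, was the only receptor with a peak in Wtap flox/flox alone, 570 nt at fold enrichment 8.03, the lowest among the receptors' strongest control peaks.

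Nlrp3, the sensor of the inflammasome that activates caspase-1, had 1 control peak and 2 Wtap-HKO peaks, over 180 and 1284 nt. The shared region had nearly the same fold enrichment in both, 28.1 and 28.3, and the second Wtap-HKO peak had 45.2.

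**Figure D3:**
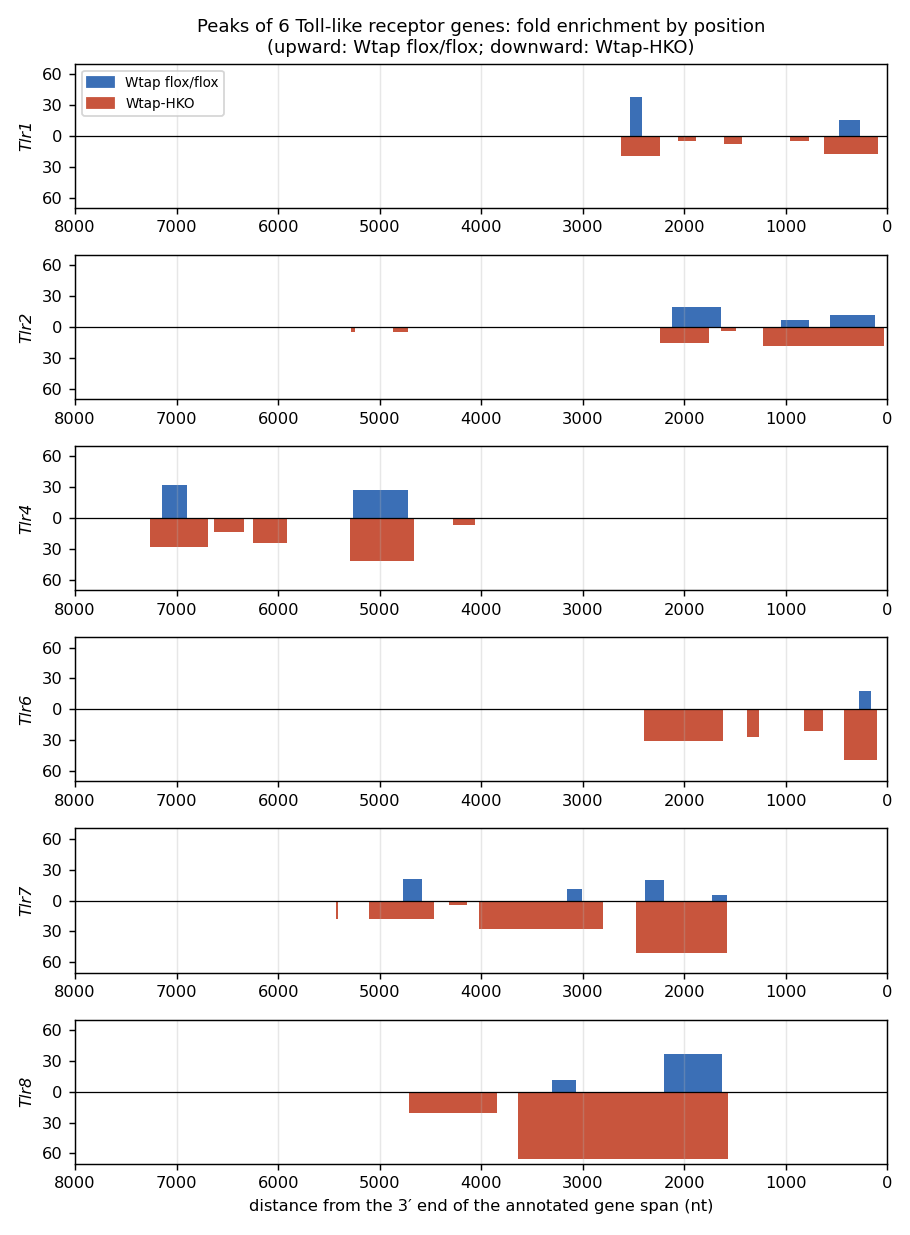
m6A peaks of 6 Toll-like receptor genes, drawn to scale by distance in nucleotides from the 3′ end of the annotated gene span; upward bars are Wtap flox/flox peaks and downward bars Wtap-HKO peaks, bar width is the exonic block and bar height the fold enrichment of the combined list. Wtap-HKO bars overlap each control bar and reach over further stretches, as in Tlr8, where 1 peak of 2062 nt spans both control peaks; the shortest blocks appear as lines.

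Marker groups of non-parenchymal cells, like the receptors, had a greater covered length in Wtap-HKO than in the control list. The ratio over all genes was 1.19, and it was 1.65 for the feedback inhibitors and 1.38 for the further pathway genes described below. Of 10 macrophage and leukocyte markers, 3 had a peak in Wtap flox/flox (Clec4f, Csf1r and Cd5l) and 8 in Wtap-HKO, and their covered length was 1949 and 6428 nt, a ratio of 3.30; Adgre1 and Itgam, both defining markers, had no peak in either list. Of 6 endothelial markers, 5 had peaks in each list, with a length ratio of 1.91 and none for Stab2. Of 5 stellate cell markers, 3 and 4 had peaks, with a ratio of 2.27 and none for Reln. Of 4 lymphocyte markers only Cd8a had peaks, and only in Wtap-HKO. Of 8 hepatocyte markers, 6 had a control peak and 7 a Wtap-HKO peak, with a ratio of 0.736 and no peak for Serpina1a. That ratio rested on Apob, which had 6300 and 4234 nt, and was 0.919 without it; by gene, length was greater in Wtap-HKO for 2, smaller for 3 and equal for 1 of the 6 with peaks in both lists. Alb had a peak in both lists, with fold enrichment 1.63 and 2.97. The part of cell composition, of transcript abundance or of sequencing depth in the receptor result was not tested.

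The adaptors and ubiquitin ligases had, in contrast to the receptors, almost the same coverage in both lists, 12900 and 12361 nt in 27 and 28 peaks. Their mean fold enrichment was 8.02 and 10.6, but the median was 7.90 and 6.28. The higher mean in Wtap-HKO rested on the single Traf1 peak at 107; without Traf1 the mean was 7.59 and 6.99. Of the 19 paired peaks, 14 had the lower fold enrichment in Wtap-HKO, and the median log2 ratio was -0.55, where that over all 10499 paired peaks was 0.01. Over all 45 paired peaks of the members, 9 (20%) had a log2 ratio above 1, against 14.9% of all paired peaks, and 9 (20%) had one below -1, against 12.4%. When pairing needed 50% of the bases of both peaks, 5 of 38 members' pairs were above 1, or 13.2%, the same as the 13.2% of all such pairs, and 8 (21.1%) were below -1, against 11%. Of the adaptor peaks, 3 were above 1 and 5 below -1. The adaptor group here includes Ripk1, a kinase and scaffold, and the protease Casp1. Ripk1 gave 2 of the 3 peaks above 1, at 2.04 and 1.24, and its peak at -1.2 was among the 5 below -1.

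Ticam1 encodes TRIF, the adaptor of TLR3 and of the endosomal arm of TLR4 signalling (ENSMUSG00000047123; chromosome 17, 56269462 to 56276767). All 3 of its peaks were lower in Wtap-HKO. The peak at the 3′ end had fold enrichments of 15.3 and 5.51 (log2 ratio -1.47), the middle one 2.84 and 2.07 (-0.46) and the third 5.50 and 1.65 (-1.74). Covered length was also shorter, 2068 and 1320 nt. Myd88, the adaptor of nearly all other Toll-like receptors, had no control peak and 1 Wtap-HKO peak of 181 nt with fold enrichment 4.0, which reached upstream of the annotated gene span.

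The TRAF proteins, which build ubiquitin chains or recruit the enzymes that do, differed in direction among themselves. Traf6, which links MyD88 and the IRAKs to TAK1 (ENSMUSG00000027164; chromosome 2, 101678420 to 101701668), had 1 peak in each list with fold enrichments of 16.8 and 7.93 (log2 ratio -1.08). Traf3, which restrains the non-canonical pathway and serves interferon induction, had a peak over exactly the same 661 nt in both lists, at 14.9 and 5.39 (-1.47). Traf2, which acts downstream of TNF receptors, had nearly equal values, 7.97 and 7.40 (-0.11). Traf1, itself an NF-κB target gene (ENSMUSG00000026875; chromosome 2, 34941750 to 34961812), had the highest ratio of all paired member peaks. Its peak had fold enrichments of 19.3 and 107 (log2 ratio 2.47) and covered 151 and 720 nt. The control value rested on a short peak with a log10 FDR of -6.20, against -62.9 in Wtap-HKO.

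The TAB proteins tie TAK1 to ubiquitin chains. Tab1 had 3 peaks towards its 3′ end in both lists, and all 3 were lower in Wtap-HKO, with log2 ratios of -0.29, -0.22 and -0.99. Tab2 had 5 peaks in each list over 3117 and 2128 nt. A control peak of 1437 nt at fold enrichment 13.9 lay where Wtap-HKO had 2 separate peaks at 3.45 and 10.4. Towards its 3′ end, the Tab2 peaks had 4.27 and 2.92, and 3.69 and 2.23, whereas the peak that reached its 5′ end had 7.90 in the control list and 12.6 in Wtap-HKO. That Wtap-HKO peak also spanned a second control peak at 2.69, so these values are no 1-to-1 pair. Tab3 had 2 control peaks at 5.80 and 3.90 and a single Wtap-HKO peak at 4.13, placed elsewhere, near the 5′ end. In neither Tab2 nor Tab3 could the 5′ peak be paired 1 to 1.

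Ripk1, the kinase and scaffold of the TNF receptor complex, had paired peaks in both directions along 1 gene (ENSMUSG00000021408; chromosome 13, 34002225 to 34035170). Its peak near the 5′ end had fold enrichments of 2.96 and 12.2 (log2 ratio 2.04). Its next 2 paired peaks, further towards the 3′ end, had 4.91 and 2.65 (-0.89) and 9.71 and 4.24 (-1.20), and the one nearest to the 3′ end had 8.38 and 19.8 (1.24). A further peak at the very 3′ end was listed only in Wtap-HKO, at 8.38. Birc2 and Birc3 encode the cIAP ubiquitin ligases that modify RIPK1; they are paralogs side by side on chromosome 9, so their reads may be shared. The paired Birc2 peaks had 6.04 and 9.05 (0.58) and 6.19 and 4.15 (-0.58), and the paired Birc3 peak had 7.97 and 10.4 (0.38). Casp1, the protease that matures the interleukin-1 family in inflammasomes, had 1 peak in Wtap-HKO alone, of 181 nt at 9.79.

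The kinases had 9 control peaks and 14 Wtap-HKO peaks over 2546 and 3537 nt (ratio 1.39), with a mean fold enrichment of 11.8 and 7.28 and a median of 8.37 and 5.11. Their 8 paired peaks divided evenly, 4 above and 4 below 0. Weak peaks listed in 1 genotype made up much of the difference in number, among them those of the IκB kinase subunits. Chuk, which encodes IKKα, had a single Wtap-HKO peak with fold enrichment 2.80, and Ikbkb, which encodes IKKβ, had 2 with 2.75 and 2.93. Ikbkg, the regulatory subunit NEMO, had the opposite presence, with 1 control peak of 210 nt at 3.76 and none in Wtap-HKO. All of these values lay below the median of all peaks in their own list, so presence and absence here concerned low enrichments.

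Of the IRAK kinases, Irak2, which sustains signalling (ENSMUSG00000060477; chromosome 6, 113638467 to 113695026), had 1 long peak towards its 3′ end at 8.59 and 5.15 (log2 ratio -0.74). Irak1 had 2 peaks that went in opposite directions, 3.38 and 6.28 near the 5′ end (0.89) and 3.53 and 2.45 towards the 3′ end (-0.53). Irak4, the kinase that starts the cascade, had 1 Wtap-HKO peak of 120 nt at 3.07. Irak3, an IRAK with weak kinase activity that dampens the pathway, had 2 neighbouring peaks of up to 210 nt. The one nearer to the 3′ end had 12.7 and 25.7 (1.02) and the next had 32.5 and 5.06 (-2.68), the lowest ratio of the members. Since the Irak3 peaks lie side by side and each was short, with log10 FDR between -12.3 and -5.00, these ratios rest on weakly supported peaks.

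Map3k7, which encodes TAK1, had its strong peak, in the 3′ part of the gene, at 8.37 and 10.3 (log2 ratio 0.30). It had 2 further peaks in Wtap-HKO alone, at 8.13 and at 3.42. The first lay 605 nt from the 5′ end of the gene span and covered an annotated start. The second lay 212 nt from the 3′ end. Map3k14, which encodes NIK, the kinase of the non-canonical pathway, had a 3′ peak at 7.47 and 16.0 (1.1). Its other peak, which reached the 5′ end, had 26.3 and 7.93 (-1.73). The control value rested on a peak of 180 nt with a log10 FDR of -6.1, against -12.1 in Wtap-HKO. Map3k14 therefore went against Ripk1 and Irak1, whose 5′ peaks had the higher value in Wtap-HKO.

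The NF-κB subunits themselves had few peaks of moderate enrichment, 5 in the control list and 6 in Wtap-HKO over 1471 and 1502 nt, and mean fold enrichments of 7.45 and 5.15. All 3 paired peaks were lower in Wtap-HKO. Nfkb1, which encodes p105 and p50 (ENSMUSG00000028163; chromosome 3, 135584655 to 135691969), had 14.9 and 7.13 in the first part of the gene (log2 ratio -1.06) and 10.6 and 7.57 towards the 3′ end (-0.49). The control peak at 14.9 had a log10 FDR of -6.38, against -32.7 in Wtap-HKO. Rela, which encodes the transactivating subunit p65, had a peak at 3.56 and 2.61 (-0.45), and its second control peak at 2.55 had no counterpart. Rel, which encodes c-Rel, had 1 control peak at 5.66 where Wtap-HKO had 2 at 5.55 and 4.97. Nfkb2, which encodes p100 and p52, had 1 Wtap-HKO peak at 3.05. Relb, the partner of p52, had none in either list.

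Among the feedback inhibitors, coverage was 2522 nt in the control list and 4167 nt in Wtap-HKO (ratio 1.65) with 9 peaks in each, and the mean fold enrichment was 8.47 and 8.59. All 5 inhibitors with peaks in both lists had more covered length in Wtap-HKO. The difference was small for Nfkbia (269 and 299 nt), Nfkbiz (180 and 210 nt) and Tnip1 (331 and 361 nt). Most of it lay with Nfkbie (480 and 1287 nt) and Tnfaip3 (1262 and 1771 nt). The same count over all genes was not made, for these or for the receptors. Nfkbia encodes IκBα, the inhibitor that NF-κB induces first to end its own activity (ENSMUSG00000021025; chromosome 12, 55489409 to 55492647). Its only peak lay 30 nt from the annotated 5′ end in both lists, over 269 and 299 nt, with fold enrichments of 4.43 and 10.8 (log2 ratio 1.29). Its log10 FDR was -75.5 and -221. Nfkbib, which encodes IκBβ, had a peak in Wtap-HKO alone, at 5.51 and likewise near the 5′ end. Nfkbie, which encodes IκBε, had a paired peak at 3.84 and 7.83 (1.03), and towards its 3′ end 1 Wtap-HKO peak of 957 nt at 10.2 spanned control peaks of 180 and 210 nt at 4.83 and 6.78. The control peak at 3.84 covered only 90 nt, with a log10 FDR of -3.28. The 3 classical IκB genes thus had either a higher value or their only peak in Wtap-HKO.

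The other inhibitors differed less. Tnfaip3, which encodes the ubiquitin-editing enzyme A20, had a paired peak towards the 3′ end at 10 and 13.2 (log2 ratio 0.40). Upstream of it, control peaks at 13.6 and 19.9 lay under 1 Wtap-HKO peak at 13.2. Tnip1, which encodes the A20 partner ABIN1, had 8.46 and 7.56 (-0.16). Nfkbiz, which encodes the nuclear regulator IκBζ, had 4.39 and 3.76 (-0.22).

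**Figure D4:**
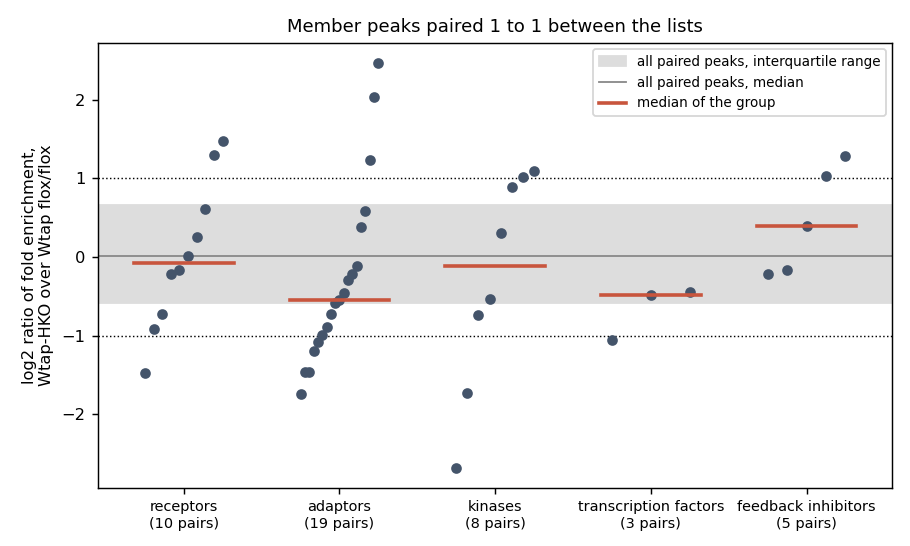
log2 ratio of fold enrichment, Wtap-HKO over Wtap flox/flox, for the 45 member peaks that overlapped 1 to 1 between the lists; each point is 1 peak, peaks are sorted within a role, red lines are role medians, dotted lines mark -1 and 1, and the grey band is the interquartile range of all 10499 paired peaks (-0.58 to 0.66). Adaptor peaks lie mostly below 0 (median -0.55, 19 pairs), while the 5 inhibitor peaks have a median of 0.40.

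The role groups differed in where along the gene their peaks lay. A peak was called near the 5′ end when its edge lay within 200 nt of the annotated end of the gene span. This held for 5 of 69 control peaks (7.25%) and 11 of 92 Wtap-HKO peaks (12%) of the members, where the shares over all peaks were 10.6% and 18.1%. None of the receptor peaks or transcription factor peaks lay there in either list. Kinases went from 2 of 9 peaks to 5 of 14 and inhibitors from 1 of 9 to 3 of 9. Adaptors went from 2 of 27 (7.41%) to 3 of 28 (10.7%), both below the shares over all peaks. The 5 control peaks belonged to Ripk1, Tab2, Irak1, Map3k14 and Nfkbia, and each of these genes also had a 5′ peak in Wtap-HKO. By this rule, the genes with one in Wtap-HKO alone were Tab3, Irak4, Chuk, Ikbkb, Nfkbib and Nfkbie. The Myd88 peak and the Map3k7 peak at 8.13, both in Wtap-HKO alone, covered an annotated start. The Nfkb2 peak, also in Wtap-HKO alone, began 36 nt after an annotated start. None of these peaks was counted, because their edges lay more than 200 nt from the end of the span. Of the 5 genes with a 5′ peak in both lists, Map3k14 had the lower fold enrichment in Wtap-HKO and the other 4 the higher, that of Tab2 without a 1-to-1 pair. Within 200 nt of the 3′ end lay 6 control peaks (8.70%) and 9 Wtap-HKO peaks (9.78%), beside 9.93% and 8.19% over all peaks. These 3′ counts depended on the rule, and were 2 and 5 within 100 nt and 30 and 31 in the final 10% of the gene span.

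The first bases of the transcripts under 5′ peaks are shown for the members where RefSeq (GRCm38.p6) holds the annotated start, because these were the places where a peak was listed in Wtap-HKO alone or had the higher value there. Each is the stretch of the Wtap-HKO peak that lies within the window up to 50 bases after that start, at most 30 bases, on the transcript strand, and capitals mark GGAC, the core of the common m6A motif. Chuk is at chr19:44107448-44107477 on the minus strand, Irak4 at chr15:94543673-94543702 on the plus strand, Nfkbia at chr12:55492598-55492617 on the minus strand, Ripk1 at chr13:34002393-34002412 on the plus strand, Tab2 at chr10:7956094-7956123 on the minus strand and Tab3 at chrX:85574052-85574071 on the plus strand.
Chuk: gagacggaGGACtccgcaagcctcggcggc
Irak4: cagggggatatgatgccccggtgacccgca
Nfkbia: ccgcggcggcgctgccgagc
Ripk1: ccccagtagtccttagagga
Tab2: gtgcgagccggagccgagcagcgggccgcg
Tab3: gcgcgcagtcaagggggttc

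Only the Chuk stretch held GGAC, searched on the transcript strand alone. Over all 32851 annotated starts, windows of the same length and distance from the start held it in 11.2% (Chuk and Tab2, the first 30 bases), 11.4% (Irak4, 30 bases from 13 bases after the start) and 7.64% (Nfkbia, Ripk1 and Tab3, 20 bases from 30 bases after the start). The peaks extend beyond these stretches, so a stretch without GGAC says nothing of whether the peak holds one.

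Rows of the list of differential peaks were found for 9 of the 42 members with a peak (21.4%), where the share over all genes with a peak was 27.8%. The 11 rows fell to 5 of 13 adaptors (Ripk1, Tab2, Ticam1, Traf1 and Traf6), 3 of 9 kinases (Chuk, Ikbkg and Irak2) and 1 of 6 inhibitors (Nfkbia). The 10 receptors and the transcription factors had no row, although receptors such as Tlr8 and Tlr9 showed some of the greatest differences in covered length. At the rows of Ripk1, Tab2, Ticam1, Traf6 and Irak2, which number 7, the Wtap-HKO list held the lower fold enrichment. Only at those of Traf1 and Nfkbia did it hold the higher one. The same split over all rows of the list was not counted, so this split cannot be read as a trait of the members. The Chuk and Ikbkg rows lay where 1 genotype alone had a peak. For Ripk1, the row covered the 3′ region with 9.71 and 4.24 and not the 5′ peak with 2.96 and 12.2.

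The wider pathway was followed in 74 further genes, of which 61 had a peak. Of these, 10 (16.4%) had one only in Wtap-HKO and 2 (3.28%), Tollip and Nkiras1, only in Wtap flox/flox, both below the 22.0% and 7.99% over all genes. Covered length was 30816 and 42552 nt (ratio 1.38), with a mean fold enrichment of 8.49 and 11.8. Of 60 paired peaks, 8 had a log2 ratio above 1 and 6 below -1. Both shares lay below those over all paired peaks, 14.9% and 12.4%. The median log2 ratio was 0.12. The median of the further genes was thus above 0 and that of the 43 members, -0.22, below it, a difference that was not tested.

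Some of the further receptors and their helpers had a paired peak with the higher value in Wtap-HKO. Tlr13, a receptor for bacterial ribosomal RNA, had a peak at 13.5 and 64.0 (log2 ratio 2.25). Unc93b1, the chaperone that carries nucleic acid receptors to endosomes, had peaks at 3.37 and 13.7 (2.02) and at 13.6 and 53.6 (1.98). Nod1, a cytosolic sensor of peptidoglycan, had one at 4.25 and 13.7 (1.69), but its stronger control peak had 15.5 and 13.6 (-0.19). Irf3, the transcription factor of the TRIF branch, had the highest ratio, 3.79 and 26.2 (2.79), while its other paired peak had 4.10 and 2.87 (-0.51). In the opposite direction, Traf4 had 8.53 and 2.97 (-1.52), the necroptosis kinase gene Ripk3 had 16.7 and 6.32 (-1.40), and Nlrp12 had 10.5 and 4.06 (-1.37). Of the genes with a peak in Wtap-HKO alone, the highest fold enrichments were those of Ticam2 (45.2), which bridges TLR4 and TRIF, Nod2 (36.1), Cd40 (33.4), Nlrc3 (27.1) and Il18r1 (19.0).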

How the data were processed

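Poly(A)+ RNA from livers of both genotypes was fragmented, immunoprecipitated with an antibody to m6A and sequenced beside its input. Per the labels and the methods of the study, the authors trimmed reads with fastp 0.19.11, mapped them with BWA 0.7.12, called peaks with exomePeak, giving 1 list per genotype, and searched motifs with HOMER 4.9.1; the submitters' processing notes name the versions. The deposited lists give for each peak its exonic blocks (coordinates of GRCm38), the fold enrichment, a ratio of IP over input, and log10 values of p and FDR. These log10 values were treated as a score from the authors' peak caller. The third deposited list holds peaks tested between the genotypes; its columns of the authors' own comparison (log10 p, log10 FDR and log2 fold change of the difference) were not used, and only the presence, position and pooled fold of its rows were. No list gives reads or depth, so no counting interval could be computed, and all FDR values in the 2 genotype lists were below 0.01.

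Peaks were assigned to genes by the name the authors gave. Peaks of the 2 lists overlapped when they shared at least 1 exonic base on the same strand, and peaks overlapping exactly 1 peak each way were paired; the ratio of their fold enrichments was computed without centring. Ends of gene spans came from a RefSeq table (GRCm38.p6), which held all 43 members, and start sequences from a RefSeq table of windows from 250 bases before to 50 after each start, which held 36 of them. The overlap step was tested on simulated peaks. Python 3.11.15, pandas 2.3.3, numpy 2.4.6 and matplotlib 3.10.9 were used. All members were named. Of the further pathway genes, 12 were named by the size of their log2 ratio or, for peaks in Wtap-HKO alone, by fold enrichment. Tollip and Nkiras1 were named besides these, because their peaks were in Wtap flox/flox alone. The members, role groups and lists were chosen with earlier results of these data known. Alternatives covered FDR, fold enrichment, overlap, scaling, the threshold and the position rule.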

Additional observations from a re-analysis of the deposited data

How the results depend on the processing

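No paired analysis was possible because the deposited lists combine the replicates of each genotype, and for the same reason no replicate could be left out. Of 47 values recomputed under another setting, 38 kept their size, 9 moved and 0 reversed. Some of the 38 could not have changed, so this tally overstates how stable the results were. The planned FDR limit removed no peak, because every listed peak already passed it. The median log2 ratio does not depend on the threshold. Centring could shift the ratios only slightly, because the median over all paired peaks was nearly that of equal values. With pairing by 50% of the exonic bases of both peaks, 5 member peaks instead of 9 had a log2 ratio above 1, and the median was -0.34 instead of -0.22. At a threshold of 0.5 on the size of the log2 ratio, 18 peaks instead of 9 had a lower value in Wtap-HKO past it. With 1 value per gene, from its strongest peak in each list, 5 genes were above 1 and 4 below -1. Peaks near the 3′ end numbered 2 and 5 (Wtap flox/flox and Wtap-HKO) within 100 nt, and 30 and 31 by the final 10% of the gene span, against 6 and 9 within 200 nt. An FDR under 1e-05 was added after the data were seen. Read depth is unknown, and it limits which weak peaks were listed.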
